A study of Mus musculus with 16 samples.

Results

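The genes described here are 10 imprinted genes, found by symbol among the 55536 Ensembl genes of the count table: H19, Igf2, Meg3, Rian, Mirg, Dlk1, Mest, Peg3, Peg10 and Cdkn1c. Genomic imprinting is the silencing of 1 parental copy of a gene, set by DNA methylation laid down in egg or sperm. Imprinted genes lie in clusters that often hold growth-promoting genes expressed from the paternal copy and growth-restraining genes or long noncoding RNAs expressed from the maternal copy. Most are highly expressed before birth and are switched down after it, and several are known from muscle regeneration and from the growth of fat cells. H19, Meg3, Rian, Mirg and Cdkn1c are expressed from the maternal copy and the other 5 from the paternal copy, as textbook knowledge. The counts do not tell the parental copies apart, so levels and not imprinting were measured.

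RNA was sequenced from 2 tissues of each of 8 females: visceral fat and the red part of the gastrocnemius in the calf. A MyD88 knockout in muscle was carried by 4 of them (MyD88 Muscle KO, mice 139, 958, 960 and 29), and the other 4 were Cre-Control mice (131, 137, 138 and 11). Every mouse had 5 weeks of wheel running and was then kept for 8 days in a small cage that restricted movement, so no group without this treatment was compared. Each mouse gave 1 library per tissue, which makes 4 groups of 4 libraries: muscle of knockouts, muscle of controls, fat of knockouts and fat of controls. The sources used here do not give the promoter that drives Cre, the deleted exons or the age of the mice.

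Total counts per library were 15203806 to 21747345 in muscle, against 13242243 to 19114782 in fat. Levels are CPM, that is counts relative to library size, scaled with TMM factors over the 16 libraries, which were 0.615 to 0.681 in muscle and 1.34 to 1.89 in fat. The targeted gene, Myd88, averaged 2.94 ± 0.33 CPM in knockout muscle and 4.03 ± 0.98 CPM in control muscle (SD, n = 4 each). Its log2 fold change, knockout over control, was -0.47 (SE 0.20), and its edgeR adjusted p was 0.949. Control mouse 138 gave a fat library unlike the rest. Its bladder gene Upk1a was at 290 CPM, against at most 1.68 CPM in the other 7 fat libraries. The summed level of 8 adipocyte markers, as CPM of total counts without TMM factors, was 5421 in that library and 19975 to 24439 in the other 7. On the same scale, summed smooth muscle markers were 20560 in that library and 440 to 1071 in the other 7. Summed mesothelial markers were 1214.5 in it and 60.2 to 268 in the other 7. Results in fat are therefore given with and without it where it decides them.

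Sequences carried by 2 of these genes show what the transcripts are known to make besides the RNA counted here. H19 is a long noncoding RNA whose first exon holds the precursor of miR-675, and an intron of Mest holds that of miR-335. The mature RNAs are printed from RefSeq (GRCm38.p6), 5′ to 3′, with the seed, bases 2 to 8, in capitals.
mmu-miR-675-5p: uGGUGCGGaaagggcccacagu
mmu-miR-675-3p: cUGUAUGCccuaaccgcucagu
mmu-miR-335-5p: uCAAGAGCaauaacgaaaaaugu
mmu-miR-335-3p: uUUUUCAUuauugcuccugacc
No seed is shared among these 4. The maternal RNAs of chromosome 12, Meg3, Rian and Mirg, span a domain with 105 mature miRNAs in the RefSeq table, of which 3 lie within Meg3, 6 within Rian and 26 within Mirg. These 105 carry 97 different seeds, and 8 seeds occur in more than 1 of them. The following pairs are shown because they share a seed. The first pair and miR-494 lie between Rian and Mirg, and miR-453, miR-496a and miR-410 lie within Mirg.
mmu-miR-379-3p: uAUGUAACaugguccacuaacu
mmu-miR-411-3p: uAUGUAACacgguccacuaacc
mmu-miR-453: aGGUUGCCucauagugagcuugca
mmu-miR-496a-5p: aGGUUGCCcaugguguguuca
mmu-miR-494-5p: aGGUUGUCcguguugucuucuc
mmu-miR-410-5p: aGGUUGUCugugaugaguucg
The libraries were made from total RNA for long transcripts, and the level of the mature miRNAs was not measured. Counts listed for the miR-335 gene, Mir335, were 2 in the muscle of knockout mouse 960 and 0 in the other 7 muscle libraries. In fat they were 13, 1, 2 and 0 in knockout mice 139, 958, 960 and 29, and 4, 11, 0 and 5 in control mice 131, 137, 138 and 11.

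Promoter windows of 300 bases, from 250 before to 50 after a RefSeq start site, were found for 7 of the 10 genes and none for H19, Peg10 and Cdkn1c. The hexamer TGCCGC, which the imprint-keeping zinc finger protein ZFP57 binds when methylated, was searched on both strands and is held by 11.6% of all 32851 mouse windows in the table. Of the 13 windows of these genes, it occurs at 2 places in each of 2 Mest windows that lie 3 bases apart, at 1 place in 1 of 2 Meg3 windows and at 1 place in 1 of 4 Igf2 windows, and matches are printed in capitals in either orientation. These windows are shown because Mest varied most between mice and Meg3 heads the chromosome 12 RNAs that moved together.
Mest promoter, GRCm38.p6 chr6:30737800-30738099, plus strand: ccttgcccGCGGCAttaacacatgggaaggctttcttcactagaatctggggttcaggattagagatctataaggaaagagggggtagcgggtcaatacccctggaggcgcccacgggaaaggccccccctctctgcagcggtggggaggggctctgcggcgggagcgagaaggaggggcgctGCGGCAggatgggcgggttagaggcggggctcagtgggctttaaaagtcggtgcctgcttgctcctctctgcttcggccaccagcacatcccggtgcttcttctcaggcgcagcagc
Meg3 promoter, GRCm38.p6 chr12:109540746-109541045, plus strand: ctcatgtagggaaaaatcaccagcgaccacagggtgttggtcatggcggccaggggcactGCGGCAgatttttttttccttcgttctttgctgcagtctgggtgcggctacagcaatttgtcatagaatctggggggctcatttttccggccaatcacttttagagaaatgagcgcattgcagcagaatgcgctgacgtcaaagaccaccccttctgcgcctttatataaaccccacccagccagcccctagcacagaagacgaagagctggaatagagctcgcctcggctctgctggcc
The Mest window shown holds 17 CpG dinucleotides and the third Mest window 8, the Meg3 window shown holds 13 and the other Meg3 window 1, against a median of 7 over all windows. The window of Rian holds 0 and that of Mirg 10, and the 4 of Igf2 hold 2 to 24. The E-box CAGCTG was found at 1 place in another Mest window and in no other member's window, and 16.3% of all windows hold it. A MEF2 motif was found in none of the members' windows, and 3.19% of all windows hold one.

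The largest difference among the 10 genes was that of H19 between the tissues. H19 (ENSMUSG00000000031, chromosome 7, 142575529 to 142578143, minus strand, GRCm38) ranged from 1044 to 1896 CPM in the 8 muscle libraries, with a median of 1459, and from 2.93 to 23.9 CPM in the 8 fat libraries, with a median of 9.53. Its means were 1455 ± 335 CPM in muscle, against 10.2 ± 7.05 CPM in fat (SD, n = 8 each), and the ranges were far apart. The log2 fold change, muscle over fat, was 7.19 (SE 0.44) with an edgeR quasi-likelihood adjusted p of 6.12e-10. Of the 17084 genes tested, 82 had a larger one.

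Most genes differ between muscle and fat, and so did these. Of the 10 genes, 8 passed the filter on low counts, and 7 of the 8 were called at an edgeR adjusted p under 0.05, while 79.6% of all genes tested were called. H19 was higher in muscle, and Meg3, Rian, Mirg, Mest, Peg3 and Peg10 were lower. Over all genes tested, 35.7% were called higher in muscle and 44% lower, beside 1 and 6 of the 8 members, and the share called in either direction is near that of all genes. The median log2 fold change of the 8 was -1.04, and that of all genes tested was -0.16. The ranges of the 2 tissues did not overlap for 5 of the 8 members, and did not overlap for 52.1% of all genes. With scaling by total counts alone the median of all genes was -1.36, and every member shifted down with it. In bulk tissue, fewer cells of a type and less RNA per cell cannot be told apart.

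**Figure D1:**
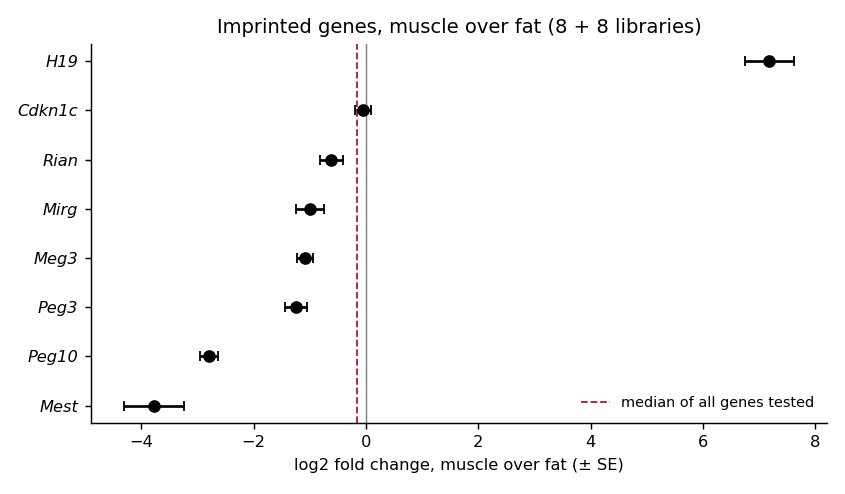
Log2 fold change of 8 imprinted genes, muscle over fat, with SE as bars (edgeR, 8 libraries per tissue), and the median of all 17084 genes tested as a dashed line at -0.16. H19 stands at 7.19 to the right, Cdkn1c is near 0, and the other 6 lie left of the dashed line.

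H19 in fat varied between libraries together with the muscle fibre RNA Ckm. The 8 fat libraries held H19 at 0.201 to 1.65% of the mean muscle level, and Ckm, the creatine kinase of muscle fibres, at 0.127 to 1.19% of its own. The fibre genes Acta1, Ttn, Myh1, Myh2, Myh4, Myh7, Tnnt3 and Ckm averaged 0.604 to 0.841% of their muscle level in fat, and H19 averaged 0.702%. For each 100 counts of Ckm, H19 had 7.19, 10.6, 10.1 and 6.80 counts in muscle of knockout mice 139, 958, 960 and 29, and 4.27, 7.74, 7.66 and 5.01 in muscle of control mice 131, 137, 138 and 11. In fat it had 10.0, 14.3, 11.5 and 6.64 in those knockout mice, and 5.49, 8.39, 7.22 and 7.11 in those controls. The ratio thus covered 4.27 to 10.6 in muscle and 5.49 to 14.3 in fat, and the ranges overlap. The fitted level of H19 differed 146-fold between the tissues. The source of the H19 RNA in the fat libraries was not tested. The mean log2 ratio of H19 over Ckm differed by -0.25, muscle minus fat (SD of the 8 mouse differences 0.23), and was below 0 in 6 of 8 mice, with an exact 2-sided sign-flip p of 0.0313 that became 0.0938 after adjustment over 3 tests of this ratio.
Across the 8 fat libraries, log2 levels of Ckm and H19 correlated with a Pearson r of 0.913 (permutation p = 0.00174, 0.00637 after adjustment over 10 tests) and a Spearman rho of 0.857 (permutation p = 0.0107, adjusted 0.0513). Those 10 tests cover this relation and those of Mest given later, each with and without mouse 138. Without the 2 mice farthest from the median in Ckm, r was 0.756, and without mouse 138 it was 0.904 over 7 mice. The H19 to Ckm ratio, this relation and those of Mest given later were chosen after the data had been seen. Their p-values do not allow for that choice. Centred on genotype means, r was 0.952 (exact permutation within genotype, p = 0.00521, adjusted over 10 such tests 0.026).

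**Figure D2:**
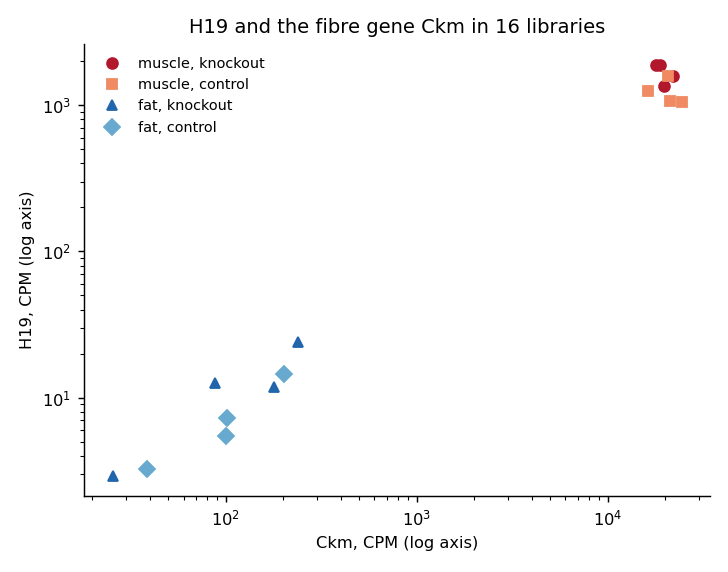
H19 against Ckm, both in CPM on log axes, in 16 libraries marked by tissue and genotype. The muscle libraries sit at the upper right and the fat libraries at the lower left, where libraries with more Ckm have more H19, between 2.93 and 23.9 CPM.

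Igf2, the growth factor gene beside H19, could not be read from these counts. The annotation places 3596 of its 5723 exon bases, 62.8%, in exons shared on the same strand with Gm49394, a predicted gene that had 0 counts in all 16 libraries. Mir675, inside H19, likewise had 0 counts, although its 84 bases would hold 5188 of the 146741 H19 counts at equal density. With these zeros, reads in exons that 2 genes share do not seem to have been assigned to either. Igf2 had 1 to 8 counts per library in muscle and 1 to 6 in fat, 71 in all, from the 2127 bases it does not share, and it did not pass the filter. Igf2 is therefore left out of the order of levels given later. With no filter on low counts its log2 fold change, muscle over fat, was 1.02 (SE 0.41, edgeR adjusted p 0.0491), from those few counts. The log2 ratio of H19 over Igf2 counts was higher in muscle than in fat by 6.36 in the mean. That difference is mostly the one of H19 itself, set over a handful of Igf2 counts, so its test is not used.

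The maternal RNAs of chromosome 12 were lower in muscle than in fat. Meg3 (ENSMUSG00000021268, chromosome 12, 109541001 to 109571726, plus strand), a long noncoding RNA, had 11.8, 17.4, 19.7 and 18.8 CPM in muscle of knockout mice 139, 958, 960 and 29, and 16.6, 12.5, 18.4 and 17.9 CPM in muscle of control mice 131, 137, 138 and 11. In fat it had 37.3, 33.4, 23.7 and 27.3 CPM in the knockouts and 33.1, 35.2, 58.0 and 37.0 CPM in the controls. Every fat library was above every muscle library, and control mouse 138 was the highest. The log2 fold change, muscle over fat, was -1.08 (SE 0.15, edgeR adjusted p 5.31e-06).
Rian, which hosts a large array of small nucleolar RNAs, had 25.3, 23.3, 20.3 and 24.1 CPM in knockout muscle and 23.4, 12.1, 28.5 and 20.1 CPM in control muscle, in the same mouse order. In fat it had 33.1, 29.3, 16.7 and 26.6 CPM in the knockouts and 34.3, 31.2, 69.4 and 38.5 CPM in the controls. The tissues overlap, with knockout mouse 960 lowest in fat and control mouse 138 far above the rest. Its log2 fold change, muscle over fat, was -0.61 (SE 0.20, edgeR adjusted p 0.0104). Mirg, the host of the distal miRNA cluster, averaged 1.91 ± 0.61 CPM in muscle, against 3.88 ± 1.46 CPM in fat (SD, n = 8 each), a log2 fold change of -0.99 (SE 0.24, edgeR adjusted p 0.0015).

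These RNAs, which are made from neighbouring parts of 1 domain, moved together between the fat libraries. In the 8 fat libraries the Pearson r of log2 levels was 0.969 for Meg3 and Rian, 0.920 for Meg3 and Mirg and 0.951 for Rian and Mirg, with permutation p-values of 0.00595, 0.0109 and 0.00781 after adjustment over 10 relations. The Spearman rho was 0.810, 0.810 and 0.881, each with an adjusted permutation p of 0.0724 to 0.0726, which misses the threshold. Without mouse 138 the values of r were 0.921, 0.845 and 0.909 over 7 mice. Without the 2 mice farthest from the median on the first gene they were 0.793, 0.591 and 0.739. Centred on genotype means they were 0.955, 0.878 and 0.918 over 8 mice. The adjusted exact permutation p-values were 0.0347, 0.0579 and 0.0521, so that Meg3 and Rian passed and the 2 relations of Mirg missed the threshold. Centred in this way and without mouse 138, r was 0.895, 0.787 and 0.863 over 7 mice. The adjusted exact permutation p-values were then 0.104, 0.266 and 0.260, and none of these relations passed.
In the 8 muscle libraries no relation passed. There the r was 0.398 for Meg3 and Rian (adjusted permutation p = 0.488, rho 0.0476), 0.735 for Meg3 and Mirg (adjusted permutation p = 0.0829, rho 0.452) and 0.844 for Rian and Mirg (adjusted permutation p = 0.12, rho 0.381). The muscle values rest on few mice, since without the 2 farthest they were -0.16, -0.27 and -0.18. Mouse 137 had the lowest Rian and Mirg in muscle, at 12.1 and 0.593 CPM. Whether the relation differs between the tissues was not tested.

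Dlk1, the paternally expressed neighbour of Meg3 and the preadipocyte factor that restrains fat cell formation, was near the limit of detection in both tissues. It had 1, 2, 4 and 1 counts in muscle of knockout mice 139, 958, 960 and 29 and 3, 1, 4 and 0 in muscle of control mice 131, 137, 138 and 11. In fat it had 7, 4, 6 and 14 counts in the knockouts and 3, 2, 19 and 7 in the controls. The highest value was again that of control mouse 138. Dlk1 did not pass the filter on low counts, and a count of 0 allows up to 3 counts, 0.138 to 0.227 CPM of total counts depending on the library. The log2 ratio of Meg3 over Dlk1 had a difference of -0.30, muscle minus fat, which misses the threshold (exact sign-flip p = 0.594, adjusted 0.891 over 6 ratio tests).

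Mest (ENSMUSG00000051855, chromosome 6, 30723547 to 30748465, plus strand), an alpha/beta hydrolase family gene whose RNA in mouse fat is known to rise as fat cells expand, had the widest spread of the 10 genes in fat. In muscle it was low and even, at 2.29, 3.25, 2.51 and 2.99 CPM in knockout mice 139, 958, 960 and 29, and 2.89, 1.78, 1.92 and 2.7 CPM in control mice 131, 137, 138 and 11. It had 43.7, 24.7, 20.7 and 19.9 CPM in fat of the same knockouts, and 46.1, 110, 4.03 and 15.8 CPM in fat of the same controls. In fat, control mice 137 and 138 were the highest and the lowest of all 8, and the 4 knockouts lay between them. The range among the controls was 27.3-fold, and over the 7 fat libraries without mouse 138 it was 6.95-fold.
The log2 fold change, muscle over fat, was -3.77 (SE 0.53, edgeR adjusted p 9.44e-06), and no library of one tissue reached the range of the other. The annotation has 912 of the 3945 Mest exon bases, 23.1%, opposite exons of Copg2, and the sources used here do not give the strand setting of the counting. Copg2, which encodes a coat protein of Golgi transport, was at 39.8 to 50.9 CPM in the 8 fat libraries, a narrow range beside that of Mest.
Mest varied between mice together with Lep, the leptin gene, and with Npr3, which encodes the natriuretic peptide clearance receptor. Both were chosen after their values were seen, and the p-values below do not allow for that choice. Lep had 532, 328, 491 and 371 CPM in fat of the knockouts and 817, 1232, 65.4 and 470 CPM in fat of the controls, in the same mouse order. Npr3 had 1178, 722, 991 and 721 CPM in fat of the knockouts and 1403, 1807, 107 and 737 CPM in fat of the controls. Mouse 137 was the highest and mouse 138 the lowest for all 3 genes.
Over the 8 fat libraries the Pearson r of log2 levels was 0.935 for Lep and Mest (permutation p = 0.00191, adjusted 0.00637, rho 0.833, adjusted 0.0513). It was 0.930 for Npr3 and Mest (permutation p = 0.000446, adjusted 0.00446, rho 0.881, adjusted 0.0513). Adjustment was over the 10 tests described for Ckm and H19, which count each gene pair with and without mouse 138. Without mouse 138 they were 0.866 (adjusted permutation p = 0.0255) and 0.924 (adjusted permutation p = 0.00893) over 7 mice. Without the 2 mice farthest from the median on the first gene, r was 0.646 for Lep and 0.856 for Npr3. With mouse 138 left out before those 2, r was 0.295 for Lep and 0.748 for Npr3. Centred on genotype means, r was 0.936 for Lep (adjusted exact permutation p = 0.0405) and 0.938 for Npr3 (0.026), and without mouse 138 as well it was 0.899 for Lep (0.174) and 0.910 for Npr3 (0.0417). Adipoq, the adiponectin gene, gave 0.678 (adjusted permutation p = 0.167) over 8 libraries and -0.46 (adjusted permutation p = 0.29) without mouse 138. Sfrp5, a secreted Wnt antagonist, gave 0.522 (adjusted permutation p = 0.20) over 8 libraries.

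**Figure D3:**
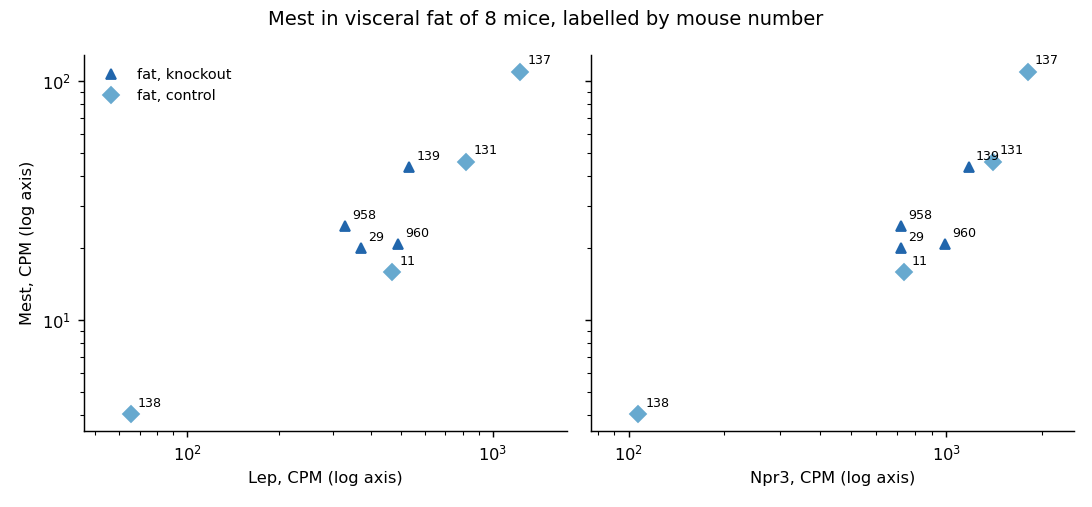
Mest against Lep (left) and Npr3 (right) in visceral fat of 8 mice, all in CPM on log axes, each point labelled with its mouse number and marked by genotype. Mouse 138 lies alone at the lower left with 4.03 CPM of Mest, mouse 137 at the upper right with 110 CPM, and the knockouts lie between 19.9 and 43.7 CPM.

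Peg3 and Peg10 were lower in muscle. Peg3, a zinc finger protein gene on chromosome 7, had 51.8, 55.9, 56.5 and 37.9 CPM in knockout muscle and 44.0, 41.7, 45.6 and 47.4 CPM in control muscle, for mice 139, 958, 960 and 29 and mice 131, 137, 138 and 11. Its fat libraries held 111, 147, 104 and 67.7 CPM in the knockouts and 75.9, 160, 163 and 70.6 CPM in the controls. All fat libraries were above all muscle libraries, and the log2 fold change, muscle over fat, was -1.24 (SE 0.20, edgeR adjusted p 3.07e-05).
Peg10, derived from a retrotransposon and known for its role in the placenta, averaged 2.09 ± 0.31 CPM in muscle, against 14.5 ± 3.42 CPM in fat (SD, n = 8 each), with no overlap. Its log2 fold change was -2.80 (SE 0.16, edgeR adjusted p 1.59e-10), the smallest adjusted p of the 8 members. Sgce, the epsilon-sarcoglycan gene that starts next to Peg10, averaged 13.1 ± 1.38 CPM in muscle, against 58.3 ± 9.10 CPM in fat (SD, n = 8 each), a log2 fold change of -2.15 (SE 0.10, edgeR adjusted p 2.78e-11).

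Cdkn1c, which encodes the cell cycle inhibitor p57, was the member whose level differed least between the tissues. It had 14.6, 17.1, 18.8 and 13.8 CPM in knockout muscle and 13.1, 12.3, 17.6 and 19.1 CPM in control muscle, in the same mouse order. In fat it had 17.9, 21.9, 17.3 and 20.1 CPM in the knockouts and 12.7, 16.8, 8.66 and 17.9 CPM in the controls. The tissues overlap, and the log2 fold change, muscle over fat, was -0.06 (SE 0.14, edgeR adjusted p 0.726). Scaled by total counts alone it was -1.25 and called (edgeR adjusted p 2.17e-07, with a range of 2.17e-07 to 0.946 over 15 alternatives), in a fit where 91% of all genes were called. Of its 2039 exon bases, 625 lie opposite the antisense gene Gm44732, which had 16 counts in muscle and 19 in fat in all.

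**Figure D4:**
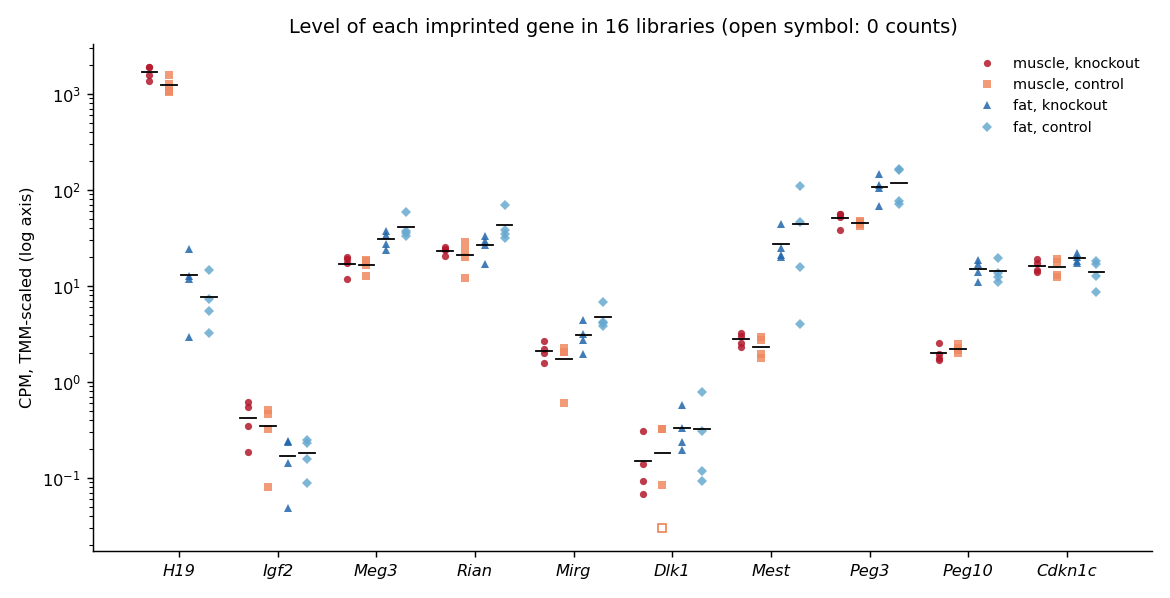
Level of the 10 imprinted genes in CPM on a log axis, with 1 symbol per library, groups from left to right muscle of knockouts, muscle of controls, fat of knockouts and fat of controls, and the group mean as a bar. H19 lies above 1000 CPM in muscle alone, Mest spreads from 4.03 to 110 CPM in fat of controls, and an open symbol marks the muscle library without a Dlk1 count.

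Set per kilobase of exon, the genes rank differently in the tissues. In muscle H19 stood at 591 ± 136 CPM per kb, followed by Cdkn1c at 7.75 ± 1.32, Peg3 at 3.57 ± 0.50, Rian at 1.21 ± 0.27, Meg3 at 0.919 ± 0.16, Mest at 0.644 ± 0.13, Peg10 at 0.314 ± 0.047, Mirg at 0.261 ± 0.083 and Dlk1 at 0.029 ± 0.023 (SD, n = 8 each). Rian and Meg3, Meg3 and Mest, and Peg10 and Mirg differed by less than the sum of their SDs. In fat Mest stood at 9.02 ± 8.38 CPM per kb, Peg3 at 8.43 ± 2.99, Cdkn1c at 8.17 ± 2.05, H19 at 4.15 ± 2.87, Peg10 at 2.18 ± 0.51, Meg3 at 1.97 ± 0.56, Rian at 1.91 ± 0.84, Mirg at 0.533 ± 0.20 and Dlk1 at 0.058 ± 0.041 (SD, n = 8 each). From Mest down to Rian, neighbours in that order differed by less than the sum of their SDs, and so did H19 and each of Peg10, Meg3 and Rian. So among the members ranked here, H19 exceeded all others in muscle, and in fat no single one did.

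The muscle knockout of MyD88 changed none of these genes past the threshold in muscle. Of the 8 members tested, 0 were called by edgeR, against 0.0141% of all 14183 genes tested, and at an unadjusted p under 0.05 there was 1 of 8, against 5.04% of all genes. DESeq2 and limma voom called 0 of the 8 as well, and the groups of none of the 8 were free of overlap, against 3.12% of all genes. H19 had the smallest p. It had 1577, 1896, 1887 and 1345 CPM in muscle of knockout mice 139, 958, 960 and 29, and 1044, 1252, 1574 and 1064 CPM in muscle of control mice 131, 137, 138 and 11. The groups overlap, since control mouse 138 lay just below knockout mouse 139 and above mouse 29. Means were 1676 ± 266 CPM in the knockouts and 1233 ± 246 CPM in the controls (SD, n = 4 each). H19 thus differed by 0.44 on the log2 scale (SE 0.15), with an edgeR quasi-likelihood adjusted p of 0.907 (0.0114 before adjustment).
With no filter on low counts H19 was called in muscle (edgeR adjusted p 0.0032, with a range of 0.0032 to 1 over 16 alternatives), in a fit that called 0.282% of 28344 genes, and it was not called under the other 15. Beside this, the summed level of 8 markers of satellite cells and regenerating fibres was 48.5 to 60.7 CPM of total counts in knockout muscle and 41.0 to 47.5 in control muscle, with none of the 8 at 0 in all libraries of a group. The summed level of 7 macrophage markers was 75.7 to 105 CPM of total counts in knockout muscle and 50.3 to 75.3 in control muscle, and again none was at 0 throughout a group. On that scale the groups did not overlap for these 2 lists, but they overlapped in muscle for every other cell type list examined. Endothelial markers, for example, were at 266 to 289 CPM of total counts in knockout muscle and 216 to 299 in control muscle. With the TMM factors used for H19 the groups overlapped for the 2 lists as well. Satellite cell markers were then at 71.7 to 90.3 CPM in knockouts and 66.8 to 72.3 in controls. Macrophage markers were at 113 to 154 CPM in knockouts and 74.8 to 115 in controls. The part of these cells in the H19 level was not tested. The log2 ratio of H19 over Ckm differed by 0.51 in muscle, knockout minus control, with an exact permutation p of 0.171, also 0.171 after adjustment over 3 tests.
The other 7 members had log2 fold changes from -0.15 to 0.29 in muscle. The median of all 8 was 0.15 and that of all genes tested was 0.00285. Peg3 stood at 0.17 (SE 0.11) and Mest at 0.27 (SE 0.22), both with overlapping groups. Peg10, at -0.15 (SE 0.22), was the 1 member below 0.

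In fat, where the gene was not targeted, 0 of the 8 members were called by edgeR, against 0.00613% of all 16323 genes tested. At an unadjusted p under 0.05 there was 1 of 8, against 7.99% of all genes, and DESeq2 and limma voom called 0 members. In a limma voom fit of all 16 libraries with the mouse as replicate block 8 genes were called, 0 of them members. All 8 members had overlapping groups, while 6.32% of all genes had none. Rian was the gene with an unadjusted p under 0.05, at 26.4 ± 7.0 CPM in knockouts and 43.3 ± 17.6 CPM in controls (SD, n = 4 each). On the log2 scale it differed by -0.72 (SE 0.30), knockout over control, and edgeR gave an adjusted p of 0.618 (0.044 before adjustment). Its groups overlap, and 1 library held much of the difference. Without mouse 138 the log2 fold change was -0.39 (SE 0.21, edgeR adjusted p 0.403). Meg3 and Mirg had log2 fold changes of -0.43 (SE 0.22) and -0.64 (SE 0.30), and without mouse 138 they were at -0.21 (SE 0.14) and -0.40 (SE 0.25). Summed markers of fibro-adipogenic progenitors and preadipocytes were 1560 to 3150 CPM of total counts in fat of knockouts. They were 2215 to 4120 in fat of controls, the highest being mouse 138. With the TMM factors used for the gene levels they were 1092 to 2031 CPM in knockouts and 1565 to 2228 in controls. On that scale mouse 138 was at 2218 CPM, just below control mouse 11 at 2228 CPM. The part of these cells in the levels of Rian, Meg3 and Mirg was not tested.
Cdkn1c was at 19.3 CPM in fat of knockouts and 14 CPM in fat of controls, a log2 fold change of 0.47 (SE 0.22, edgeR adjusted p 0.627), and 0.29 (SE 0.13) without mouse 138. H19 in fat was at 12.8 ± 8.61 CPM in knockouts and 7.61 ± 4.88 CPM in controls (SD, n = 4 each), with a log2 fold change of 0.74 (SE 0.63, edgeR adjusted p 0.738), which was 1.26 (SE 0.69) without mouse 138 and 0.25 at its lowest over the 8 fits that leave out a mouse. Summed fibre markers in the same libraries were 1181 to 16946 CPM of total counts in fat of knockouts and 1598 to 8598 in fat of controls. Mest had a log2 fold change of -0.69 (SE 0.82, edgeR adjusted p 0.815), and it was 0.30 without mouse 137 and -1.07 without mouse 138. Peg3 and Peg10 stood at -0.13 (SE 0.35) and 0.09 (SE 0.22).

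**Figure D5:**
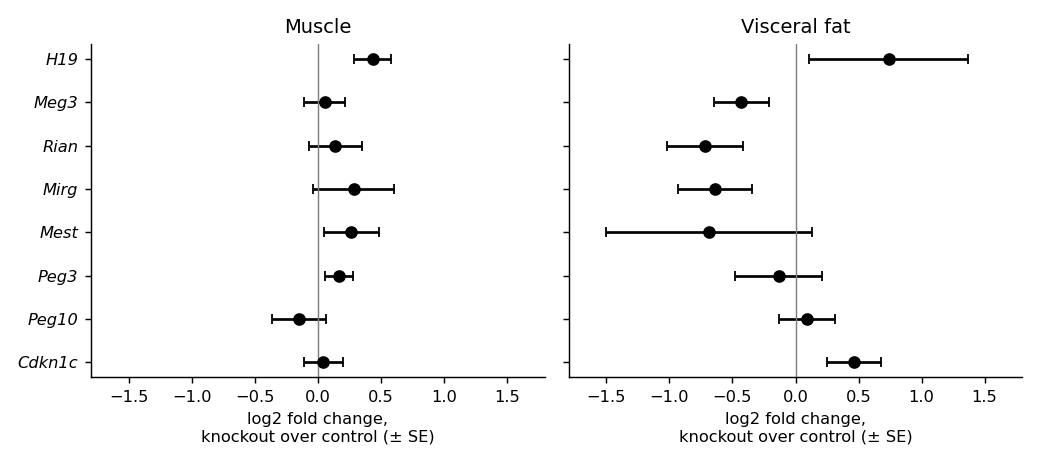
Log2 fold change of 8 imprinted genes, knockout over control, in muscle (left) and visceral fat (right), with SE as bars (edgeR, 4 libraries per group). Muscle values lie between -0.15 and 0.44, and fat values between -0.72 and 0.74 with wider errors; none was called.

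Whether the knockout went with different changes in the tissues was tested with an interaction term in the fit of 16 libraries. None of the 8 members was called by edgeR, and 0% of 17084 genes were. At an unadjusted p under 0.05 there was 1 of 8, against 7.19% of all genes, and DESeq2 called 11 genes, 0 of them members. Rian was that member, with a difference of 0.86 (SE 0.40) on the log2 scale, muscle effect minus fat effect, and an edgeR adjusted p of 0.685 (0.0467 before adjustment). Mirg followed at 0.91 (SE 0.49, edgeR adjusted p 0.697).

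Other imprinted genes were counted from a list of 62, and 49 of them passed the filter. Between the tissues 16 were called higher in muscle, 28 lower and 5 were not called, with a median log2 fold change of -0.55. Of all genes tested 79.6% were called, 35.7% higher and 44% lower, with a median of -0.16, and the counts of the 2 lists that follow stand beside these same shares. Higher in muscle were Slc38a4, an amino acid transporter, at 87.0 ± 14.5 CPM in muscle, against 3.28 ± 2.60 CPM in fat (log2 fold change 4.75, SE 0.42), and Asb4, an adaptor of ubiquitin ligases, at 17.9 ± 3.97 CPM in muscle, against 0.859 ± 0.45 CPM in fat (4.36, SE 0.26). Cobl, an actin nucleator, Herc3, a ubiquitin ligase, and Zdbf2 followed at 2.26, 1.98 and 1.58.
Lower in muscle were Nnat, a small membrane protein gene, at 1.05 ± 1.14 CPM in muscle, against 236 ± 106 CPM in fat (-7.86, SE 0.61), and Slc22a3, an organic cation transporter, at 0.445 ± 0.21 CPM in muscle, against 31.8 ± 11.9 CPM in fat (-6.16, SE 0.44). Rasgrf1, Klf14 and Plagl1, which encode a Ras activator and zinc finger transcription factors, stood at -5.80, -5.47 and -4.62. In muscle Rasgrf1 averaged 0.0187 CPM and Klf14 0.0838 CPM, near the limit of detection, so the sizes of their changes rest on few muscle counts. Plagl1 averaged 2.22 CPM there. All 10 named genes had edgeR adjusted p-values of 0.000721 or less, and all SDs are over n = 8. For genotype, none was called of the 37 tested in muscle or the 49 tested in fat, and none was called for the interaction.

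A list of 15 genes covered the setting, keeping and removal of DNA methylation, and other chromatin proteins. Of these, 14 were tested, with 5 higher in muscle, 6 lower and 3 not called, and a median log2 fold change of -0.09. Tet1, Dnmt3a and Ctcf were higher in muscle, with log2 fold changes of 0.84, 0.84 and 0.48, and encode a demethylating enzyme, a DNA methyltransferase and an insulator protein that binds the H19 control region. Uhrf1, Zfp57 and Tet3 were lower in muscle at -2.36, -2.19 and -0.63. Zfp57, whose protein binds the hexamer marked in the promoters, averaged 0.558 ± 0.24 CPM in muscle, against 2.68 ± 2.02 CPM in fat (SD, n = 8 each).
In a list of 14 insulin-like growth factor genes, 12 were tested, with 2 higher in muscle, 6 lower and 4 not called, and a median log2 fold change of -0.41. Igf2r, the imprinted receptor that clears IGF2, was at 272 ± 14.3 CPM in muscle, against 168 ± 40.1 CPM in fat (0.69, SE 0.11), and Irs1, an insulin receptor substrate, stood at 0.37. Igf1 was at 23.6 ± 5.87 CPM in muscle, against 200 ± 58.5 CPM in fat (-3.09, SE 0.18), and Igfbp4 at -2.59 and Igfbp2 at -5.46 encode binding proteins. Igfbp2 in fat rested on control mouse 138, at 110 CPM against at most 1.94 CPM in the other 7 fat libraries. Of this list, none of the 11 genes tested in muscle or the 12 tested in fat was called for genotype.

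Genes whose pattern across mice was most like a member's were sought by the Pearson correlation of log2 levels, centred on group means. Over 8 muscle libraries and 13662 genes these were Ift80 (0.968) and St3gal4 (0.951) for H19, and Trip4 (0.976) and Ino80e (0.969) for Meg3. Over 7 fat libraries without mouse 138 and 14263 genes they were Hyls1 (0.992) and Padi2 (0.989) for H19, and Exoc4 (0.979) and Apaf1 (0.979) for Meg3. For Igf2, whose 1 to 8 counts per library leave little to compare, they were Rnf10 (0.981) and Tmem104 (0.959) in muscle and Sipa1l1 (0.989) and Pus10 (0.989) in fat. With so few libraries and so many genes, these are descriptions without a test.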

How the data were processed

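Libraries were made from ribosome-depleted total RNA with a stranded kit and sequenced in pairs, per the labels' protocols. The authors deposited raw counts per Ensembl gene, 1 column per library. STAR 2.7.0f, featureCounts 1.6.3, DESeq2 1.22.2 and the build GRCm38 are named in the submitters' processing notes, with no role stated. The sources used here do not give strand and overlap settings. GENCODE M21 named all 55536 identifiers. Members and lists were chosen with earlier results of these data known.

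Genotype was tested within each tissue, and muscle against fat and the interaction over 16 libraries in 4 groups, with edgeR 4.0.16 under R 4.3.3 (quasi-likelihood F test, TMM, filterByExpr, robust). A call needed a p under 0.05 after Benjamini-Hochberg adjustment across every tested gene. SEs were taken as |log2 fold change| over the root of F. Relations and ratios had exact permutation tests. Before log2 was taken, 0.5 was added to the CPM for relations and to each count for ratios. With 4 against 4 mice the smallest p is 0.0286. Named genes were the 10 members, Myd88, and genes of fixed lists with the largest tissue difference among those called (up to 5 or 3 per direction, at least 1 CPM). Ckm ratios, Lep, Npr3, Adipoq, Sfrp5 and Upk1a were chosen after their values were seen.

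Alternatives were RLE or total-count scaling, no filter, at least 1 CPM in 4 libraries, DESeq2 1.42.0, limma 3.58.1 voom, a single fit of the 16 libraries, a replicate block for mouse, another pseudocount and leaving out each mouse. Relations were also centred on genotype means, a choice made after seeing the data. Subject labels give both tissues of a mouse the same number. Their deviations from group means correlated at -0.02 to 0.04 in controls and 0.103 to 0.166 in knockouts over 17084 genes. No pair of libraries within a group agreed within sampling noise (chi-square per degree of freedom at least 8.23). Floors of 3 counts cover counting error only. The fits were also run on simulated counts. Libraries were drawn there independently, with no effect of the mouse, and no conclusion is drawn from that run.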

Additional observations from a re-analysis of the deposited data

Results flagged for a closer look

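In each group of 4 libraries, the highest or lowest value of each of the 10 genes was set against the others, 40 groups in all, of which chance marks about 1 in 20. Meg3 in fat of controls was at 58.0 CPM in mouse 138, against 33.1 to 37.0 CPM in the other 3. Mirg in the same library was at 6.83 CPM, against 3.78 to 4.21 CPM. Mirg in muscle of controls was at 0.593 CPM in mouse 137, which rests on 7 counts, against 2.03 to 2.24 CPM in the other 3.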

How the results depend on the processing

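Between muscle and fat 7 members were called under every alternative but 2, which called 8: total-count scaling added Cdkn1c (-1.25), and no filter on low counts added Igf2 (1.02). Of 8 members, 0 were called for genotype in fat or the interaction under any alternative, and 1 in muscle, H19 with no filter (0.44). Genes called in muscle numbered 80 with no filter, 1 with at least 1 CPM in 4 libraries, 10 with DESeq2 and 1 to 10 leaving out a mouse, and in fat 72 with DESeq2, 0 with voom, 6 in 1 fit of all libraries, 8 with the replicate block and 0 to 6 leaving out a mouse. DESeq2 called 11 for the interaction. The replicate block changed no other count by over 1.5 times. Mest in fat turned to 0.12 under voom and 0.12 under the replicate block. Leaving out each mouse, genotype effects in muscle ranged from -0.055 to 0.19 for Meg3, -0.054 to 0.33 for Rian, -0.0098 to 0.45 for Mirg and -0.053 to 0.16 for Cdkn1c. In fat they ranged from -1.07 to 0.30 for Mest, -0.33 to 0.074 for Peg3 and -0.036 to 0.29 for Peg10. Muscle over fat, Cdkn1c ranged from -0.17 to 0.043. The interaction ranged from -0.70 to 0.22 for H19 and -0.15 to 1.36 for Mest. The H19 over Igf2 ratio, muscle minus fat, ranged from 6.13 to 6.58 leaving out each mouse. Its adjusted sign-flip p was then 0.0938 in each fit, and 0 ratio tests passed. Every mouse had a positive difference, so before adjustment that p could be no smaller with the mice left. Missing the threshold therefore does not show dependence on a mouse. That ratio's genotype effect in muscle ranged from -0.16 to 0.73. Meg3 over Dlk1 ranged from -0.63 to 0.00285 muscle minus fat and from -0.35 to 0.69 for genotype in muscle. Relations past the threshold numbered 2 to 3 leaving out each mouse. Centred on genotype means, a setting chosen after seeing the data, 1 passed, Meg3 with Rian in fat. Centred and without mouse 138, that relation missed the threshold (adjusted exact permutation p = 0.104). Causes were not tested. Values of Igf2 and Dlk1 rest on at most 8 and 19 counts per library.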
